A study of Mus musculus with 18 samples.

Results

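The mTOR complexes and their upstream regulators were followed as 10 genes in regulatory T cells (Tregs) that lacked the chromatin remodeler CHD8. The genes were chosen by name: Mtor, Rptor, Rictor, Mlst8, Akt1s1, Deptor, Tsc1, Tsc2, Rheb and Ddit4. All 10 were among the 35865 genes listed once in the RNA-seq table and among the 15240 genes that were tested, which had a level of at least 1 TPM (reads corrected for gene length and scaled to the same total in each library) in at least 2 of the 4 libraries.

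The RNA libraries came from YFP+ CD4+ cells sorted from the spleen of 2 WT and 2 Chd8-/- mice, 1 library a mouse. The labels give the Chd8-/- genotype as CHD8Flox/FloxFoxp3YFP-Cre and the WT genotype as CHD8flox/floxFoxp3YFP-Cre/+, while the study describes its WT mice as carrying unfloxed Chd8 with the same Cre. Cre and YFP are driven by the X-linked Foxp3 locus, so deletion is directed to cells that express Foxp3. All 4 libraries carry the label of a Poly IC injection, and no age is given in the labels. The study used mice of both sexes, and which library came from which sex is not given in the sources used here. The Chd8-/- mice had inflammatory disease, so the loss of CHD8 in the cell and the inflamed surroundings cannot be told apart in these samples.

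mTOR is a protein kinase that couples nutrients and growth factor signals to protein synthesis and metabolism. It works in 2 complexes: mTORC1, defined by Raptor (Rptor), and mTORC2, defined by Rictor, with mLST8 (Mlst8) in both. The small GTPase Rheb switches mTORC1 on at the lysosome, the TSC complex (Tsc1 and Tsc2) switches Rheb off, and REDD1 (Ddit4), a stress-induced protein, restrains mTORC1 through the TSC complex. In Tregs, Raptor and mTORC1 are known to be needed for suppressive function, and too much mTOR activity is known to destabilise the lineage. Most of this regulation is by phosphorylation and protein location, which RNA levels do not measure.

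The promoters of Ddit4 and Rheb are shown because these were the most abundant transcripts of the group and lay on opposite sides of WT in the Chd8-/- libraries. Each run is the 250 bases that precede the RefSeq start site in GRCm38.p6, written 5′ to 3′ on the minus strand, on which both genes lie. The capitals mark GGGCGG (GC box), ACGTG (core of the hypoxia response element) and ATTGG (the reverse of the CCAAT box) in Ddit4, and CACGTG (E-box, which contains ACGTG) and GGGCGG in Rheb.
Ddit4, chr10:59951771-59952020: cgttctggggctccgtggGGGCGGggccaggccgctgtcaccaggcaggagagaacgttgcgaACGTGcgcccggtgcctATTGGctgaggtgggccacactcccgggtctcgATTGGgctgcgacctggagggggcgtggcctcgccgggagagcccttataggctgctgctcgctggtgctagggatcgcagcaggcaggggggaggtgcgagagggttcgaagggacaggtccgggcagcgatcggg
Rheb, chr5:24842362-24842611: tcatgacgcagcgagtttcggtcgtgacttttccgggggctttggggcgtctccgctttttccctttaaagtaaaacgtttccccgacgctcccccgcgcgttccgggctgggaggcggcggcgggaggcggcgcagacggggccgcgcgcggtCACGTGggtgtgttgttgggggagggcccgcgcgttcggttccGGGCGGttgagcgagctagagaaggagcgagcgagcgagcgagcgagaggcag

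Both promoters were rich in G and C, which made up 70.0% of the Ddit4 window and 68.0% of the Rheb window, against a median of 52.4% over the 32851 RefSeq promoter windows of this length. The ACGTG core in Ddit4 began 187 bases before the start site, and the ATTGG copies began 170 and 137 bases before it. The E-box in Rheb began 96 bases before its start. Promoter sequence was at hand for 9 of the 10 genes, and 8 motifs were searched on both strands, chosen with these promoters in view. CACGTG was present in 1 of the 9 (Rheb) and in 6.02% of all windows. ACGTG was present in 3 of the 9 (Rptor, Rheb and Ddit4) and in 16.6% of all windows. CCAAT was present in 3 of the 9 and in 33.8% of all, and GGGCGG in 5 of the 9 and in 32.7% of all. The ETS motif CCGGAAGT was present in 3 of the 9 (Mtor, Akt1s1 and Tsc2) and in 2.88% of all windows. The 9 windows held 9 (Rptor) to 40 (Rictor) CpG sites (C followed by G), against a median of 6 over all windows. Their G and C content ran from 37.6% (Rptor) to 81.2% (Rictor). The shares over all windows are not matched for base content. TGATGCAA (the ATF4 and C/EBP composite element), TGACGTCA (the cAMP response element) and AGAACA (a single arm of the glucocorticoid response element) were in none of the 9, and in 0.791%, 1.55% and 16.1% of all windows.

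Chd8 itself, the targeted gene, stood at 24.7 and 27.6 TPM in WT and at 14.9 and 11.4 TPM in Chd8-/-, a log2 fold change of -0.95 ± 0.29 (SE, n = 2 against 2, limma adjusted p = 0.455). These values cover the whole gene, exons outside the floxed part included. The libraries held an estimated 7900000 to 11300000 counted reads, and the Treg markers Foxp3, Il2ra, Ikzf2, Ctla4, Tnfrsf18, Cd4 and Cd3e were present in all 4, with a summed level of 3342 to 4006 TPM. Chd8-/- library 2 stood apart. Its 7 myeloid markers summed to 1483 TPM against 33.2 to 144.3 TPM in the other 3, with Lyz2 at 1360.3 TPM against 20.0 to 77.1 TPM, and its 5 B cell markers summed to 137.4 TPM against 28.0 to 45.5 TPM. Within these lists S100a8 was listed at 0 in each WT library but at 5.3 TPM in Chd8-/- library 1 and 16.5 TPM in library 2, and the 5 CD8 T and NK cell markers summed to 11.3 to 40.5 TPM with no separation of the genotypes. The part of other cells in the results was not tested. Where leaving out this or another library moved a value by much, the value without it is given. In bulk RNA, fewer cells that express a gene and less RNA per cell cannot be told apart.

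The levels of the 10 genes were far apart. In WT Tregs Ddit4 was highest, at a mean of 117.3 TPM, above 91.6% of the genes tested, followed by Rheb at 75.95 TPM. Rictor and Mtor came next, at 32.2 and 29.45 TPM. Rptor lay lower at 6.5 TPM, and Tsc1, Akt1s1, Mlst8, Tsc2 and Deptor lay between 1.1 and 3.6 TPM. Over all 4 libraries Ddit4 exceeded Rheb, Rheb exceeded Mtor, Rictor exceeded Rptor and Rptor exceeded Tsc1 with no overlap of their ranges. Mtor and Rictor overlapped, and so did each neighbouring pair among the 5 lowest genes.

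**Figure D1:**
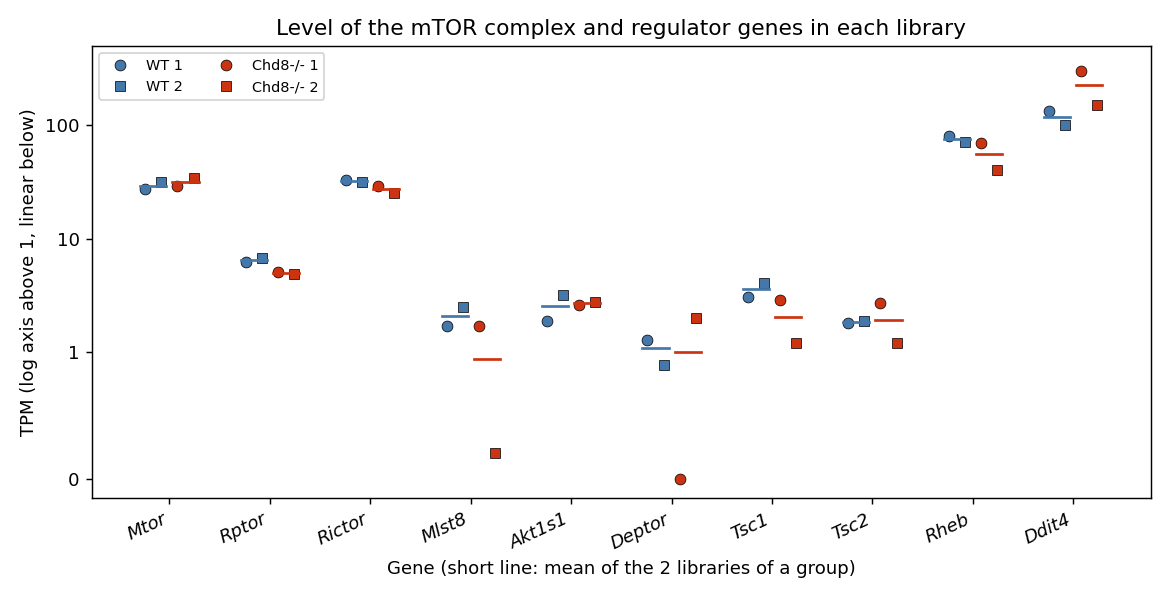
TPM of each gene (log axis above 1 TPM, linear below) in 2 WT libraries (blue) and 2 Chd8-/- libraries (red), with circles for library 1, squares for library 2 and short lines for group means. Both Chd8-/- points lie above both WT points for Ddit4 alone, and below them for Rptor, Rictor, Tsc1 and Rheb.

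None of the 10 genes passed the test between the genotypes (limma on log2(TPM + 1), Benjamini-Hochberg adjustment over all genes), and none reached a log2 fold change of 1 in either direction. The same test called 0 of 15240 genes (0.0%), with 1555 genes (10.2%) at an unadjusted p under 0.05, none of them among the 10. Of all genes, 5.12% had a log2 fold change at or above 1, and 11.6% had one at or below -1. The 2 Chd8-/- libraries exceeded the higher WT library for 1 of the 10 genes (Ddit4), against 14.8% of all genes, and fell short of the lower WT library for 4 of the 10 (Rptor, Rictor, Tsc1 and Rheb), against 27.8% of all genes. These shares are close to the background. The median log2 fold change was -0.25 over the 10 genes and -0.15 over all genes. After quantile normalization, which moved the median of all genes to 0.00, that of the 10 became 0.03, with 2 genes above WT (Tsc2 and Ddit4, against 21.0% of all genes) and 2 below (Rictor and Rheb, against 21.3%). Without Chd8-/- library 2, 2 genes (Tsc2 and Ddit4) lay above both WT libraries and 5 (Rptor, Rictor, Deptor, Tsc1 and Rheb) below, against 32.5% and 38.7% of all genes. With 2 mice a genotype, an exact permutation test of a single gene cannot go below p = 0.333.

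**Figure D2:**
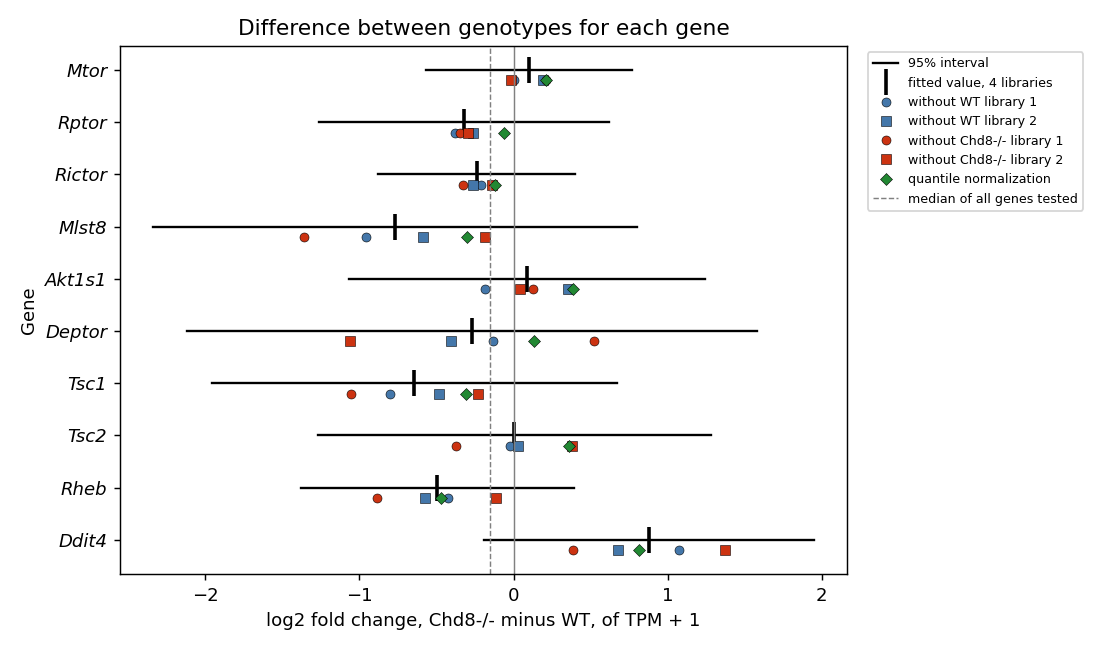
Log2 fold change of each gene, Chd8-/- minus WT, on the log2(TPM + 1) scale (black tick) with its 95% interval (line), and below it the values without each library and after quantile normalization. Every interval contains 0, and Mtor, Akt1s1, Deptor and Tsc2 fall on both sides of it. Ddit4 stays above 0 in each of these fits. Its groups did not overlap, so leaving out a library could not change its sign.

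The kinase and the defining subunit of each complex were measured with few differences between the genotypes. Mtor, the catalytic subunit of both complexes, stood at 27.4 and 31.5 TPM in WT and at 29.0 and 34.2 TPM in Chd8-/-. Its groups overlapped, and the log2 fold change was 0.10 ± 0.25 (SE; 95% interval -0.57 to 0.77; adjusted p = 0.912). Some 1149 to 1682 estimated reads lay behind each of these values.

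Rptor encodes the scaffold that brings substrates to mTORC1. It stood at 6.2 and 6.8 TPM in WT and at 5.1 and 4.9 TPM in Chd8-/-, so both Chd8-/- libraries were lower. The log2 fold change was -0.32 ± 0.35 (SE; 95% interval -1.26 to 0.62; adjusted p = 0.78), and after quantile normalization it was -0.06.

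Rictor encodes the scaffold of mTORC2, the complex that phosphorylates Akt. It stood at 32.8 and 31.6 TPM in WT and at 29.1 and 25.4 TPM in Chd8-/-. Both Chd8-/- libraries were lower here too, by a log2 fold change of -0.24 ± 0.24 (SE; 95% interval -0.88 to 0.40; adjusted p = 0.764). Without Chd8-/- library 2 the difference was -0.14.

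Mlst8, the subunit common to both complexes, was low, at 1.7 and 2.5 TPM in WT and at 1.7 and 0.2 TPM in Chd8-/-. The lowest value, in Chd8-/- library 2, rests on about 4 reads, against 28 to 44 in the other libraries. The log2 fold change of -0.77 ± 0.58 (SE; adjusted p = 0.69) was -0.19 without that library and -1.36 without Chd8-/- library 1. Of its exon bases, 29.6% also belong to Bricd5 on the opposite strand, and the strand setting of the counting is not given in the sources used here.

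Akt1s1 and Deptor encode inhibitory subunits. Akt1s1, whose product PRAS40 holds mTORC1 back until Akt phosphorylates it, stood at 1.9 and 3.2 TPM in WT and at 2.6 and 2.8 TPM in Chd8-/-, with both Chd8-/- values inside the WT range. Its log2 fold change was 0.08 ± 0.43 (SE; adjusted p = 0.963). Deptor, which binds mTOR in both complexes, was the lowest of the group, at 1.3 and 0.9 TPM in WT, listed at 0 in Chd8-/- library 1 and at 2.0 TPM in Chd8-/- library 2. The Chd8-/- libraries thus held both the lowest and the highest value of the gene, from 0 to 92 estimated reads. Chd8-/- library 2 is also the one with the high myeloid and B cell markers, and a link to Deptor was not tested. The log2 fold change of Deptor was -1.06 without Chd8-/- library 2 and 0.52 without Chd8-/- library 1, so no direction can be given.

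Tsc1 and Tsc2 encode the scaffold and the GTPase-activating subunit of the TSC complex. Tsc1 stood at 3.1 and 4.1 TPM in WT and at 2.9 and 1.2 TPM in Chd8-/-. Both Chd8-/- values were lower, the first by little, and the log2 fold change of -0.64 ± 0.49 (SE; 95% interval -1.96 to 0.67; adjusted p = 0.69) was -0.23 without Chd8-/- library 2 and -1.06 without Chd8-/- library 1. Tsc2 stood at 1.8 and 1.9 TPM in WT and at 2.7 and 1.2 TPM in Chd8-/-, so the Chd8-/- libraries lay on either side of WT. The log2 fold change was 0.00 ± 0.47 (SE; 95% interval -1.27 to 1.28). For Tsc2, 10.9% of the exon bases are shared with Pkd1 on the opposite strand.

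Rheb, the direct activator of mTORC1, stood at 79.9 and 72.0 TPM in WT and at 70.1 and 40.6 TPM in Chd8-/-. Both Chd8-/- libraries were lower, library 1 by little. The log2 fold change was -0.50 ± 0.33 (SE; 95% interval -1.38 to 0.39; adjusted p = 0.653), and it was -0.11 without Chd8-/- library 2 and -0.89 without Chd8-/- library 1. Most of the difference in Rheb was therefore carried by Chd8-/- library 2. That library also had the high myeloid and B cell markers, and a link between them and Rheb was not tested.

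Ddit4, the stress-induced restraint on mTORC1, had the log2 fold change farthest from 0 among the 10 on the log2(TPM + 1) scale. That rank depends on the scale and the libraries. With a pseudocount of 0.1, Mlst8 (-1.56), Deptor (-1.37) and Tsc1 (-0.89) lay farther from 0 than Ddit4 (0.88), and without Chd8-/- library 1 so did Mlst8, Tsc1, Rheb and Deptor. Ddit4 stood at 133.6 and 101.1 TPM in WT and at 302.1 and 151.9 TPM in Chd8-/-. Both Chd8-/- libraries were higher, and Chd8-/- library 1 was the higher of them. The myeloid markers of that library were the lowest of the 4 libraries, and a link to Ddit4 was not tested. The log2 fold change was 0.88 ± 0.40 (SE; 95% interval -0.19 to 1.95; adjusted p = 0.551). It was 1.37 without Chd8-/- library 2 and 0.38 without Chd8-/- library 1, so its size rests on which Chd8-/- mouse is used. Between 881 and 3434 estimated reads lay behind each value. Ddit4 lies on chromosome 10 (GRCm38, 59949675 to 59951770), and no other annotated gene shares its exons.

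The spread between the Chd8-/- libraries was wider than that between the WT libraries for 8 of the 10 genes. The share of all genes with a wider spread in Chd8-/- was not computed. For these genes the median gap on the log2 scale was 0.762 within Chd8-/- and 0.235 within WT, beside 0.521 and 0.322 for all genes tested. Chd8-/- library 2 had the lowest value of the 4 for 6 of the 10 genes. It lay under both WT libraries for 6 of the 10, against 52.7% of all genes, so this count is close to the background. The 3 genes whose profile over the 4 libraries was nearest to that of Ddit4, by the distance between gene-centred log2 values, were 2810006K23Rik (0.160), Gm29758 (0.176) and Gm10145 (0.182). The nearest of the other 9 was Tsc2, at rank 1622.

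Around these 10 genes, 8 lists with 105 tested genes were described, and none of their genes passed the test. Their counts and medians are read against all genes tested, of which 14.8% had both Chd8-/- libraries above WT and 27.8% below, with a median log2 fold change of -0.15. The other subunits and assembly factors of the complexes had a median log2 fold change of -0.53 over 6 tested genes, all 6 of them below 0 and 2 (33.3%) with both Chd8-/- libraries under WT. The median was -0.21 after quantile normalization. The 2 genes were Tti1, which assembles mTOR-type kinases, and Prr5l, an mTORC2 partner. Mapkap1, which encodes the mTORC2 subunit SIN1, stood at 9.6 and 13.6 TPM in WT and at 9.9 and 8.6 TPM in Chd8-/- (-0.28 ± 0.35, SE; -0.51 to -0.05 when a library was left out). Rhebl1, a paralog of Rheb, stood at 6.9 and 7.4 TPM in WT and at 1.9 and 7.6 TPM in Chd8-/- (-0.71 ± 0.64, SE), with its low value in Chd8-/- library 1, without which the difference was 0.08. Prr5 and Ddit4l did not reach the filter.

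The PI3K and Akt genes that feed into the TSC complex had a median of -0.05 over 16 genes, with 2 (12.5%) above and 4 (25.0%) below WT in both libraries. The median lay between -0.24 and 0.12 when a library was left out. Among genes with a mean of at least 5 TPM, Pik3r5, a regulatory subunit of PI3K gamma, had the smallest log2 fold change. It stood at 55.2 and 62.8 TPM in WT and at 29.5 and 41.3 TPM in Chd8-/- (-0.74 ± 0.27, SE; adjusted p = 0.486). Phlpp2, an Akt phosphatase, had the largest, at 6.0 and 3.8 TPM in WT and 6.1 and 11.1 TPM in Chd8-/- (0.68 ± 0.47, SE; adjusted p = 0.664), which was 0.29 without Chd8-/- library 2 and 0.41 without WT library 2.

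The genes of amino acid sensing, which control mTORC1 at the lysosome through the Rag GTPases, held the largest single differences of the pathway. This was also the longest list. Of its 28 tested genes, 3 had a log2 fold change at or above 1, against 5.12% of all genes. For 2 it was at or below -1, against 11.6% of all genes. Over 28 tested genes the median was -0.05 (-0.15 to 0.04 when a library was left out), with 5 (17.9%) above and 6 (21.4%) below WT in both libraries. The sestrins, which bind the GATOR2 complex and restrain mTORC1, went in opposite directions. Sesn1 stood at 159.0 and 166.2 TPM in WT and at 59.8 and 33.2 TPM in Chd8-/- (-1.84 ± 0.34, SE; 95% interval -2.75 to -0.94; adjusted p = 0.402). Sesn2, which is induced by stress, stood at 2.7 and 11.1 TPM in WT and at 43.9 and 21.3 TPM in Chd8-/- (2.24 ± 0.73, SE; 95% interval 0.27 to 4.21; adjusted p = 0.465). When a library was left out, Sesn1 lay between -2.26 and -1.43. Sesn2 was 1.39 without WT library 1, the library at 2.7 TPM, and 3.10 without WT library 2. Sesn3, the most abundant sestrin here, stood at 344.8 and 329.1 TPM in WT and at 387.3 and 388.5 TPM in Chd8-/- (0.20 ± 0.15, SE; adjusted p = 0.684). It was named after its values were seen, to complete the family. Gatsl3, the older symbol of the arginine sensor gene Castor1, stood at 8.9 and 12.7 TPM in WT and at 16.6 and 35.0 TPM in Chd8-/- (1.11 ± 0.47, SE; adjusted p = 0.527), and its value without Chd8-/- library 2 was 0.60.

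The energy-sensing kinase AMPK and its activators had a median of -0.32 over 9 genes, with 2 (22.2%) above and 4 (44.4%) below WT in both libraries. That median was -0.02 without Chd8-/- library 2, -0.14 without Chd8-/- library 1 and -0.19 after quantile normalization. Among its genes with a mean of at least 5 TPM, the beta subunit gene Prkab1 had the largest log2 fold change (0.42 ± 0.32, SE), at 27.3 and 23.9 TPM in WT and 27.7 and 43.0 TPM in Chd8-/-, and it was 0.11 without Chd8-/- library 2. The gamma subunit gene Prkag1 had the smallest among them (-0.33 ± 0.25, SE), at 67.9 and 61.1 TPM in WT and 44.0 and 59.2 TPM in Chd8-/-, and it was -0.12 without Chd8-/- library 1. The beta subunit gene Prkab2, at a lower level, reached -0.72 and is named after its values were seen. Effectors and substrates of the complexes had a median of -0.12 over 18 genes (-0.13 to 0.06 when a library was left out), with 3 (16.7%) above and 5 (27.8%) below. Foxo1, a transcription factor that Akt excludes from the nucleus, was the lowest. It stood at 357.8 and 368.8 TPM in WT and at 210.8 and 189.3 TPM in Chd8-/- (-0.86 ± 0.16, SE; 95% interval -1.30 to -0.42; adjusted p = 0.402). Leaving out any library left Foxo1 between -0.94 and -0.78. Eif4ebp3, a translation repressor of the 4E-BP family, stood at 56.7 and 35.0 TPM in WT and at 84.5 and 86.4 TPM in Chd8-/- (0.92 ± 0.30, SE; adjusted p = 0.465), and its difference was 0.58 without WT library 2.

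**Figure D3:**
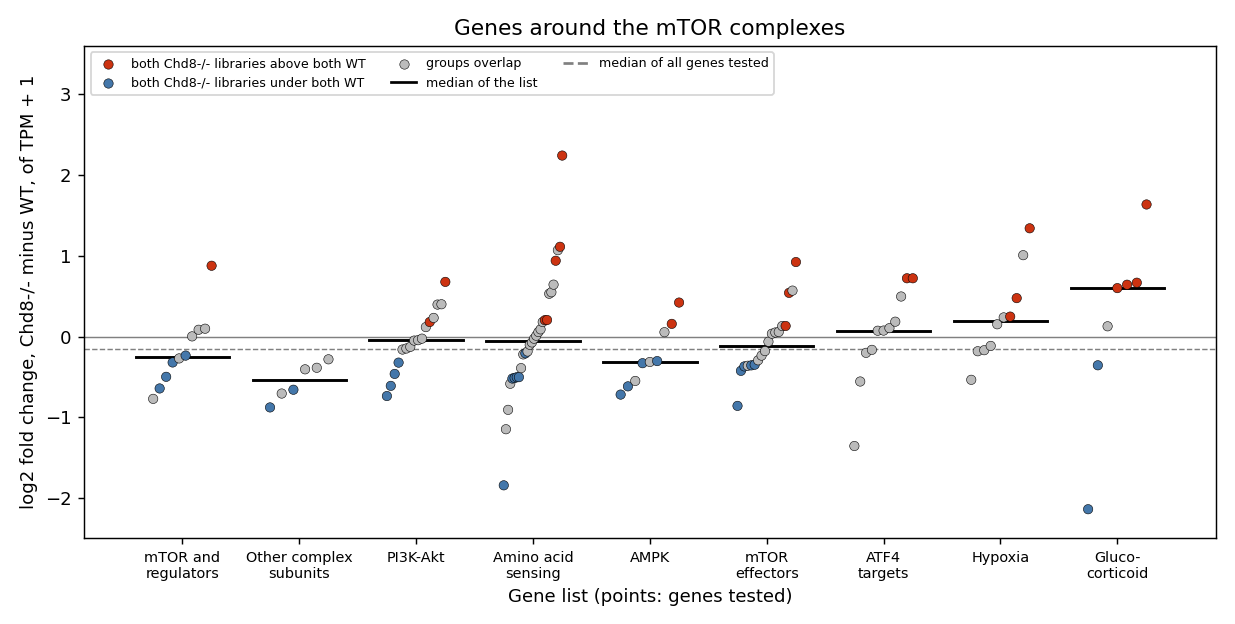
Log2 fold change, Chd8-/- minus WT, of each tested gene (point) in the 10 genes and 8 lists around them, with list medians (black lines) and the median of all genes (dashed). Red and blue points have groups that did not overlap, and the extremes are Sesn2 at 2.24 and Klf9 at -2.14.

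Ddit4 transcription is known to respond to the amino acid stress factor ATF4, to hypoxia and to glucocorticoids, and a list for each was described beside it. Targets of ATF4 had a median of 0.07 over 11 tested genes (-0.01 to 0.14 when a library was left out), with 2 (18.2%) above and 0 below WT in both libraries. Among genes with a mean of at least 5 TPM, Asns, asparagine synthetase, had the largest value, at 4.0 and 5.2 TPM in WT and 5.8 and 11.4 TPM in Chd8-/- (0.72 ± 0.46, SE; adjusted p = 0.645), which was 0.29 without Chd8-/- library 2. Slc7a5, the leucine transporter, had the smallest, at 17.1 and 27.9 TPM in WT and 20.0 and 2.8 TPM in Chd8-/- (-1.36 ± 0.91, SE), which was -0.12 without Chd8-/- library 2. Slc3a2 matched Asns after rounding (0.72 ± 0.275, SE; adjusted p = 0.496) and is named after its values were seen. It stood at 14.2 and 15.4 TPM in WT and at 22.7 and 27.6 TPM in Chd8-/-. Its difference lay between 0.59 and 0.86 when a library was left out.

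Genes induced by hypoxia had a median of 0.19 over 10 tested genes, with 3 (30.0%) above and 0 below WT in both libraries, and the median was 0.04 without Chd8-/- library 1 and 0.12 without WT library 1. Ndrg1 stood at 14.1 and 4.7 TPM in WT and at 17.3 and 29.2 TPM in Chd8-/- (1.34 ± 0.61, SE; adjusted p = 0.551), which was 0.64 without WT library 2 and 2.04 without WT library 1, while the mitophagy gene Bnip3 stood at 13.3 and 4.4 TPM in WT and at 9.2 and 2.6 TPM in Chd8-/- (-0.54 ± 0.78, SE), with no direction that held when a library was left out.

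Genes induced by glucocorticoids had a median of 0.60 over 7 tested genes, with 4 (57.1%) above and 2 (28.6%) below WT in both libraries. The median was 0.19 without Chd8-/- library 1, 0.36 without WT library 2 and 0.82 without Chd8-/- library 2. Il7r, the interleukin 7 receptor, stood at 149.7 and 126.7 TPM in WT and at 504.5 and 366.8 TPM in Chd8-/- (1.64 ± 0.23, SE; 95% interval 1.01 to 2.27; adjusted p = 0.373). Klf9 lay the other way, at 19.9 and 13.3 TPM in WT and 6.0 and 1.2 TPM in Chd8-/- (-2.14 ± 0.68, SE; adjusted p = 0.462), and was -1.30 without Chd8-/- library 2. The genes of this list therefore did not lie on 1 side. Fkbp5, Per1 and Dusp1, the other genes above WT in both libraries, had log2 fold changes of 0.60, 0.67 and 0.64. Those were 0.38, 0.88 and 0.19 without Chd8-/- library 1, and 0.82, 0.45 and 1.10 without Chd8-/- library 2. Nfkbia lay below WT in both libraries (-0.36), and the groups of Tsc22d3 overlapped (0.13, or -0.65 without Chd8-/- library 1). Fkbp5, Per1, Dusp1, Nfkbia and Tsc22d3 are named after their values were seen.

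**Figure D4:**
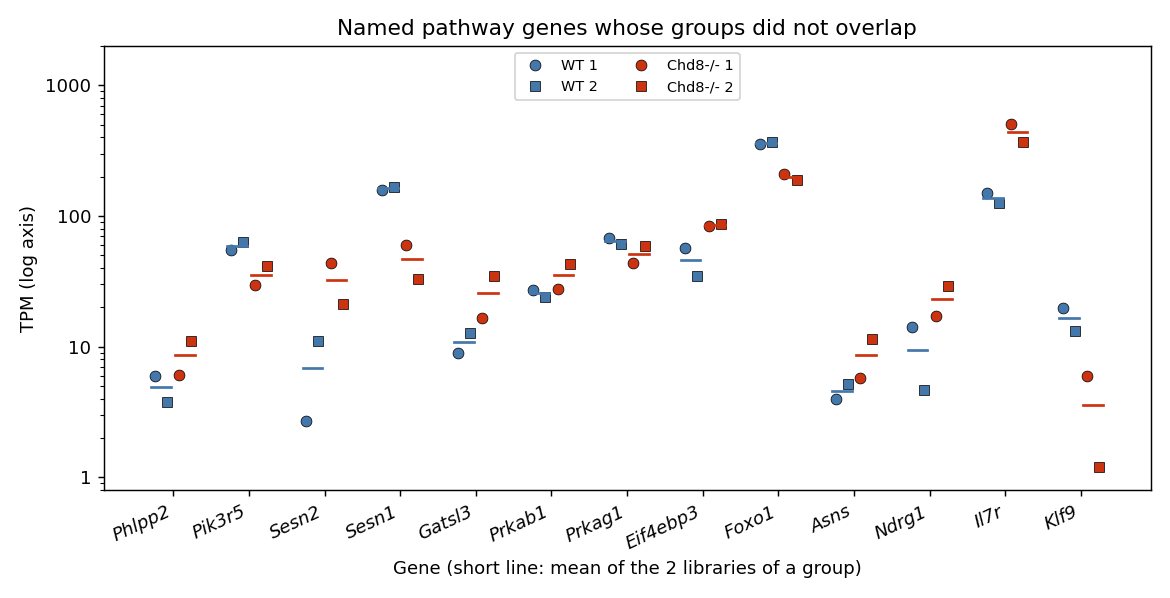
TPM (log axis) of the pathway genes that the naming rule picked and whose groups did not overlap, in 2 WT libraries (blue) and 2 Chd8-/- libraries (red), with short lines for group means. On this axis the widest gaps between the nearest points of the groups are those of Sesn1, at 159.0 and 166.2 TPM in WT against 59.8 and 33.2 TPM in Chd8-/-, and Il7r, at 149.7 and 126.7 TPM against 504.5 and 366.8 TPM.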

How the data were processed

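RNA-seq of sorted splenic Tregs from 2 WT and 2 Chd8-/- mice was used. The authors trimmed reads with Trim Galore 0.4.2 and cutadapt 1.9.1, aligned them to mm10 with STAR 2.6.1e, removed duplicates with sambamba, counted RefSeq genes with featureCounts 1.6.2 and deposited TPM values rounded to 0.1. The depth was estimated here from the step of TPM in genes of 50 to 150 bases. With RefSeq exon lengths of GRCm38 it gave 7900000 to 11300000 reads a library, and 99.6% to 100.0% of those values lay within 0.15 reads of a whole number. The read numbers are estimates and cover counting error only.

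Log2(TPM + 1) was compared with the moderated linear model of limma 3.58.1 (R 4.3.3, mean-variance trend, two-sided p, Benjamini-Hochberg) over 15240 genes with at least 1 TPM in at least 2 libraries, with calls at an adjusted p of 0.05. The fit was tested on simulated data with planted log2 changes of 2 and 4 in either direction. Those exceed the changes of the 10 genes, so the run does not tell how well such changes would be found. Where a gene is named with values in parentheses, they are the log2 fold change, Chd8-/- minus WT, on that scale, which understates changes of low genes. The 4 entries under repeated names were left out. Genes named beside the 10 were the largest and the smallest change of each list among genes with a mean of at least 5 TPM, and any list gene without overlap at a log2 fold change of 1 or more in size. The genes and lists were chosen with earlier results of these data known. Pseudocounts, filters, quantile normalization, a replicate block, the trend and leaving out each library were varied. The ATAC-seq and CHIP-seq peak tables are in another build (mm39) and are not analysed here.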

Additional observations from a re-analysis of the deposited data

How the results depend on the processing

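Of the 11 alternatives, those without a library leave 1 mouse in a group, so their calls are not used here. None of the 10 genes and none of the 105 pathway genes was called in any alternative that kept all 4 libraries. Over all genes the count in these was 0, except with a mean of at least 5 TPM. That filter called 2 (Mir7649 and Cdkn1a) and leaves Mlst8, Akt1s1, Deptor, Tsc1 and Tsc2 out. The count of the 10 with both Chd8-/- libraries above WT was 1, against 14.8% of all genes. It became 2 after quantile normalization (21.0% of all genes) and was 1 to 3 when a library was left out (at most 32.5%). The count below WT was 4, against 27.8% of all genes. It became 2 after quantile normalization (21.3% of all genes) and was 4 to 6 when a library was left out (38.0% to 52.7%). The counts thus moved with the background. The median of the 10 was -0.25, became -0.12 with a pseudocount of 5 and 0.034 after quantile normalization, and lay between -0.34 and -0.13 when a library was left out. Direction was not kept by Mtor (-0.018 to 0.21), Akt1s1 (-0.18 to 0.35), Deptor (-1.06 to 0.52), Tsc2 (-0.37 to 0.38), Bnip3 (-1.29 to 0.21) and Rhebl1 (-1.49 to 0.078) when a library was left out, by Deptor after quantile normalization (0.13), or by Tsc2 with a pseudocount of 0.1 (-0.031). The cause was not tested. Rptor, Rictor, Mlst8, Tsc1 and Rheb stayed below 0 and Ddit4 above 0 in every alternative they entered. For all of these but Mlst8 the groups did not overlap, so leaving out a library or changing the pseudocount could not change the sign. The filters, the block and the trend leave the log2 fold change as it is. Only quantile normalization could have changed the direction of those genes.

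With the replicate number as a block, 0 genes were called, the smallest adjusted p over all genes was 0.552 and that of Ddit4 was 0.552. The labels share the numbers 1 and 2 between genotypes, and the main fit did not take the numbers as pairs. The differences between libraries 1 and 2 correlated at -0.01 between the genotypes over genes. This value cannot exclude a pairing that touches few genes. Each genotype had 1 male and 1 female, whether the numbers match by sex is not given, and a pairing by sex was not tested. With 2 mice a genotype the spread of a single gene is poorly known, each value of Mlst8, Akt1s1, Deptor, Tsc1 and Tsc2 rests on at most 164 estimated reads, and nothing in the sources used here says whether the libraries differ in day of preparation. The planned comparisons of ATAC-seq and CHIP-seq peaks at the promoters were not run, since no mm39 annotation was used here.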

Other observations

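Ratios between genes of the same library do not depend on how libraries are scaled. The 7 ratios computed were chosen after the values were seen and carry no test. Ddit4 lay above WT and Rheb below WT in both Chd8-/- libraries, so their ratio had to separate the genotypes. The same holds for Sesn1 to Sesn2, and these ratios add no separate evidence. The ratio of Ddit4, which restrains mTORC1, to Rheb, which activates it, was 1.67 and 1.40 in WT and 4.31 and 3.74 in Chd8-/-, so the Chd8-/- libraries were closer to each other in this ratio than in either gene alone. The ratio of Mtor to Rptor was 4.42 and 4.63 in WT and 5.69 and 6.98 in Chd8-/-, and that of Tsc1 to Tsc2 was 1.72 and 2.16 in WT and 1.07 and 1.00 in Chd8-/-. Rictor to Rptor overlapped, at 5.29 and 4.65 in WT and 5.71 and 5.18 in Chd8-/-. Ddit4 to Mtor overlapped too, at 4.88 and 3.21 in WT and 10.4 and 4.44 in Chd8-/-, and so did Rictor to Mtor, at 1.20 and 1.00 in WT and 1.00 and 0.743 in Chd8-/-. Sesn1 exceeded Sesn2 by 58.9-fold and 15.0-fold in WT and by 1.36-fold and 1.56-fold in Chd8-/-.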
